A study of Bos taurus with 24 samples.

Results

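The genes described here build, tether and sort the membrane carriers of the secretory and endosomal pathways. They were chosen by gene symbol alone: SEC followed by a digit, the COPI subunits COPA, COPB, COPE, COPG and COPZ, TRAPPC, VPS and SNX followed by a digit, ARF1 to ARF6, the subunits of the adaptor complexes AP-1 to AP-4, CHMP, EXOC and GOLG. The rule leaves out AP2A1 and AP2A2, the alpha subunits of AP-2, and ARCN1, a further COPI subunit. No measured value entered this rule, but earlier results of these data were known when the genes were chosen. It matched 152 of the 11306 genes in the expression table. Of these, 138 had a value over 0.1 FPKM in at least 1 library and were tested. FPKM are fragments counted for the gene, scaled to the fragments mapped in the library and, per the methods, to exon length. The deposited values also depend on the span of the gene on the genome, as given below with the levels. The symbol rule takes in a few genes with other work: VPS72 is a subunit of chromatin remodelling complexes, SEC1 is a fucosyltransferase, the SEC61, SEC62 and SEC63 proteins form or assist the translocon, and SEC11A and SEC11C belong to signal peptidase.

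The data are 24 RNA-seq libraries of bovine oocytes, 6 in each of 4 groups: GV oocytes of May, GV oocytes of July, MII oocytes of May and MII oocytes of July. A GV oocyte is arrested with an intact germinal vesicle, its nucleus, and an MII oocyte has reached the second meiotic metaphase. The donors were adult, non-pregnant and non-lactating crossbred beef cows based on the Angus breed, which had their dominant follicles removed before the first collection and were sedated, with epidural analgesia, for each collection, and the MII oocytes had been matured in culture, so that stage and time in culture cannot be told apart. Cumulus cells were removed with hyaluronidase and vortexing before freezing. Per the methods, 4 oocytes from a single cow were pooled for a library, whereas the sample labels speak of individual cells. The study set May and July side by side as spring and summer, to compare oocytes of cooler and hotter weather.

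Proteins made for secretion enter the endoplasmic reticulum through the SEC61 translocon, leave it in COPII-coated vesicles and return from the Golgi in COPI-coated ones. TRAPP, golgins, the exocyst, HOPS, CORVET, GARP and EARP hold a carrier at its target membrane before fusion, adaptor complexes select cargo for clathrin and related coats, and retromer and sorting nexins bring receptors back from endosomes. ESCRT-III filaments and the VPS4 ATPases bud vesicles into endosomes and cut membrane necks, also at the end of cell division. A growing oocyte secretes its zona pellucida, the GV oocyte stores messenger RNA, and the MII oocyte makes little or no new RNA. The libraries were made from captured and amplified messenger RNA. Whether a difference between stages came from the amount of a transcript or from its capture was not tested.

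Several libraries stood apart before any comparison. From the steps between low values, the library GV May 6 had a relative depth of 0.0565 of that of GV May 1, MII May 6 of 0.149 and GV July 2 of 0.393, against 0.542 to 6.51 in the other libraries. These are called the 3 shallow libraries here. The summed level of 14 cumulus cell markers lay between 2.29 and 16.2 FPKM in 23 libraries, with a median of 3.32 in GV and 6.63 in MII oocytes of May and of 3.29 and 6.71 in those of July. The remaining library, GV May 3, held 93.5 FPKM, with INHA at 37.2 and AMH at 13.4. Single cumulus markers moved in different directions between stages. In July the mean of HAS2 was 0.486 FPKM in GV and 2.15 in MII oocytes, and that of PTGS2 1.64 and 3.80. GREM1 had means of 0.602 and 0.190 there, and INHA of 0.210 and 0.177. Of 10 oocyte markers, 8 were listed, and their sum was between 180 and 1300 FPKM in every library. The values of a library are shares of a fixed sum, and fewer transcripts of one kind cannot be told apart from more of another. Nor can fewer cells of a type be told apart from less RNA per cell in such pools. What part the shallow libraries or cumulus RNA had in a result was not tested beyond the values without these libraries.

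SEC61G, a small subunit of the translocon, had the highest mean level of all members, 109 FPKM over the 24 libraries. AP3S1, the small subunit of the AP-3 adaptor, followed with 102 FPKM, CHMP2A, an ESCRT-III subunit, with 86.7, SNX6, a sorting nexin of endosomes, with 68.5, and TRAPPC1, a core subunit of TRAPP, with 60.1. Most other members were low: 16 of the 152 had a mean over 10 FPKM and 56 a mean over 1. The median of the members' means was 0.445 FPKM, against 0.296 for all genes of the table. These levels also depend on the span of a gene on the genome. VPS53, spanning 125097 bases, had a mean of 0.0693 FPKM and a median of 57 read steps, each step taken as 1 read. SNX22, spanning 5987 bases, had 2.57 FPKM and 71.5 steps. Levels of genes of unlike span are thus not comparable as amounts of RNA, and the filter asks more reads of longer genes. Summed over all members, the mean level was 795 FPKM in GV oocytes of May, 805 in GV oocytes of July, 802 in MII oocytes of May and 796 in MII oocytes of July.

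For 2 of these abundant members, the position in the table bears on what was measured. SNX6 is placed at chr2:50561693-50562437 and AP3S1 at chr11:45757241-45758412 on the bovine assembly UMD3.1.1. These loci span 745 and 1172 bases, the shortest of all 152 members. At a given number of reads, a shorter span gives a higher FPKM. The RefSeq gene table of a later assembly, ARS-UCD2.0, lists both symbols on other chromosomes, and lists the other 150 members on the chromosome given in the deposited table. Over the whole table, 1.07% of the 10791 genes found in RefSeq were on another chromosome. Whether the reads counted for SNX6 and AP3S1 came from these short loci or from a near-identical copy of the sequence elsewhere was not tested, and the values of both are uncertain in that respect.

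From GV to MII, 19 members rose and 19 fell in May, and 13 rose and 35 fell in July (limma on log2(FPKM + 1), Benjamini-Hochberg adjusted p under 0.05 over all 9526 genes tested). Of all genes tested, 9.45% rose and 14.7% fell in May, and 7.67% rose and 23.1% fell in July. The counts of each role below are to be read beside these shares. The members' shares were 13.8% and 13.8% in May, and 9.42% and 25.4% in July. The share of members that rose was above that of all genes in May and close to it in July, and the share that fell was near it in both months. Whether these shares differed was not tested. The median change of the members was -0.04 in May and -0.05 in July on the log2 scale, against -0.03 and -0.02 for all genes. Among the 56 members with a mean of at least 1 FPKM the medians were positive, 0.30 in May and 0.27 in July, against 0.08 and -0.05 for all genes at that level. Both directions held many members, since 62 were higher and 76 lower in MII oocytes in May, and 60 were higher and 78 lower in July. Of all 9526 genes, 4214 were higher and 5312 lower in May, and 4007 were higher and 5519 lower in July.

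The balance of rises and falls depended on how the libraries were scaled and on the shallow libraries. After quantile normalization, 39 members rose and 20 fell in May, and 42 rose and 27 fell in July, where 20.4% of all genes rose and 13.9% fell in May and 23.3% rose and 18.3% fell in July. Without the 3 shallow libraries, 37 rose and 29 fell in May, and 24 rose and 37 fell in July, against 19.3% and 22.6% of all genes in May and 13.1% and 26.2% in July. When GV May 3 was left out together with them, 39 rose and 39 fell in May, against 21.9% and 26.0% of all genes. After median-of-ratios scaling 18 rose and 29 fell in May, against 8.60% and 20.5% of all genes, and 20 rose and 41 fell in July, against 12.4% and 26.3%. With an unadjusted p under 0.05 and a change over 1 on the log2(FPKM + 1) scale, which asks more of low genes than the linear fold change of the study's methods does, 6 rose and 8 fell in May (3.57% and 8.25% of all genes) and 3 rose and 10 fell in July (2.2% and 9.26%). No member that passed changed sign under any of these settings.

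Many calls were shared between the months. In both months 9 members rose and 17 fell, against 4.78% and 13.2% of all genes, and no member passed in opposite directions. A further 12 members passed in May alone and 22 in July alone, and whether the change of such members differed between months is given by the test of the season difference, which passed for 0 members. The groups did not overlap for 8 members that were higher and 7 that were lower in MII oocytes of May, against 4.65% and 8.98% of all genes. In July they did not overlap for 5 higher and 18 lower, against 3.07% and 14.7% of all genes.

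**Figure D1:**
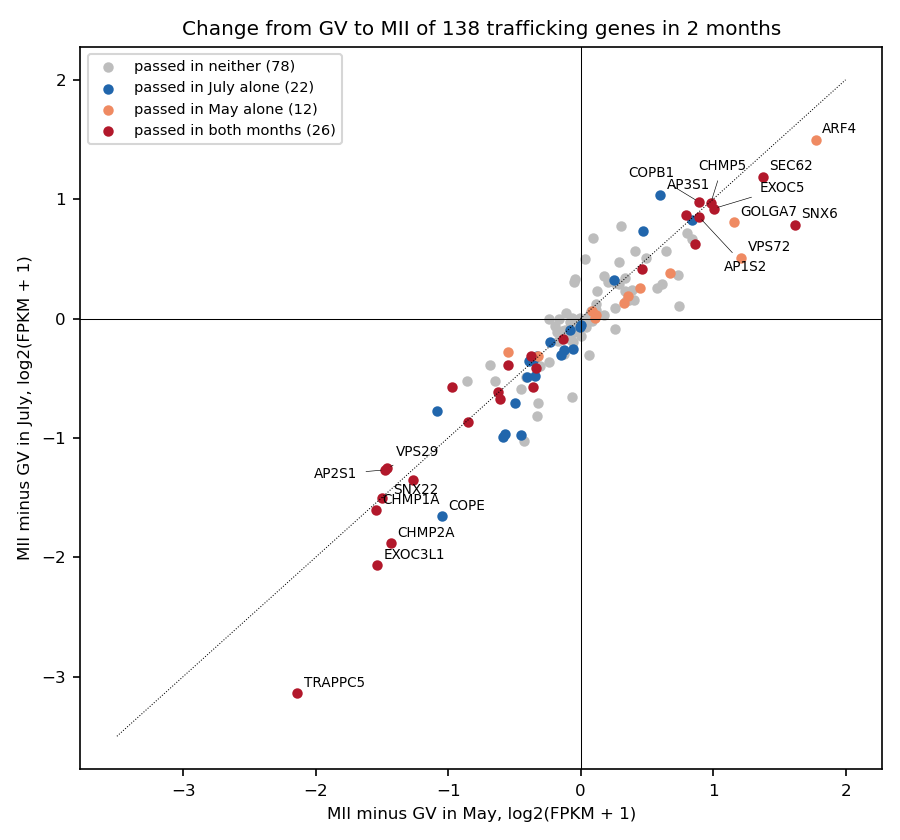
Difference between MII and GV oocytes on the log2(FPKM + 1) scale for the 138 tested members, May on the horizontal and July on the vertical axis, 1 point per gene; the dotted line marks equal differences and the colour shows in which month the adjusted p was under 0.05. TRAPPC5 lies farthest down at -2.14 and -3.14, ARF4 farthest to the right at 1.77 and 1.5, and 0 members passed in opposite directions.

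The translocon and its partners were the group at the entry of the pathway. In May 2 of its 8 members rose and 1 fell, and the same counts were found in July. SEC61B, the beta subunit of the translocon (chr8:64722966-64731271 on UMD3.1.1, as all positions here), had from 23.7 to 32.8 FPKM (median 30.1) in GV and from 46.1 to 63.8 (median 50.5) in MII oocytes of May. In July its values were 26.3 to 31.8 (median 28.7) in GV and 45.0 to 62.2 (median 55.3) in MII oocytes. The groups did not overlap in either month, with a rise of 0.79 ± 0.17 (SE, adjusted p = 0.0055) in May and 0.87 ± 0.14 (adjusted p = 0.000502) in July. After median-of-ratios scaling the rise in May was 0.56, with an adjusted p of 0.0642.

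SEC62, which helps some proteins through the translocon after they have been made, rose by 1.38 ± 0.34 (adjusted p = 0.0109) in May and by 1.19 ± 0.38 (adjusted p = 0.0322) in July. Its values were 3.06 to 13 FPKM (median 7.44) in GV and 12.4 to 36.9 (median 17.3) in MII oocytes of May, and the groups overlapped by 1 GV library, the shallow GV May 6. The July rise lost its call when any of 6 single libraries was left out, with adjusted p between 0.0588 and 0.0731. SEC61A1, the channel-forming subunit, fell in both months, by 0.97 in May and 0.57 in July on the log2 scale. Its medians were 1.38 FPKM in GV and 0.338 in MII oocytes of May, and 1.03 and 0.344 in those of July. SEC61A2, the other channel-forming paralogue, was at 0.13 and 0.23 and did not pass. The most abundant subunit, SEC61G, ranged from 36.4 to 165 FPKM in GV oocytes of May and from 62.1 to 153 in MII oocytes of May. These ranges overlapped widely and the differences of 0.09 in May and 0.67 in July did not pass.

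Without the 3 shallow libraries SEC61A1 was at -0.64 in May with an adjusted p of 0.0643. With all libraries and the deposited scaling, subunits of the translocon passed in opposite directions in both months, with SEC61B higher and SEC61A1 lower in MII oocytes. They share the same libraries. In May each of these calls was lost under a setting given above.

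COPII, the coat that leaves the endoplasmic reticulum, held few calls. In May 2 of its 9 tested members rose, namely SEC23B, an inner coat subunit, and SEC23IP, which binds SEC23, and in July none of the 9 passed. SEC23B had medians of 0.280 FPKM in GV and 0.592 in MII oocytes of May and of 0.410 and 0.604 in those of July. Its rise in May was 0.36 ± 0.12 (adjusted p = 0.0378), and its difference in July, 0.19, had an adjusted p of 0.197. SEC13, the most abundant COPII member, had medians of 3.86 and 6.01 FPKM in May and of 3.53 and 6.28 in July, with adjusted p of 0.203 and 0.62. The lowest and highest differences among the 9 members were -0.14 and 0.58 in May, and -0.12 and 0.34 in July. SEC22A, a SNARE-like protein of the early secretory pathway, fell by 0.26 in July (adjusted p = 0.0108), and SEC22B and SEC22C, its relatives, were at 0.00 and -0.03.

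COPI, the coat of the Golgi, held members that passed in both directions. COPB1, its beta subunit, rose in both months, from 1.08 to 3.44 FPKM (median 1.73) in GV to 3.46 to 5.22 (median 4.67) in MII oocytes of May. In July COPB1 had 1.43 to 3.33 (median 1.76) in GV and 3.28 to 8.71 (median 4.56) in MII oocytes. The groups did not overlap in May and overlapped in July. The rise was 0.89 ± 0.22 (adjusted p = 0.0123) in May and 0.98 ± 0.23 (adjusted p = 0.00751) in July.

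COPZ1, the zeta subunit, fell in both months, by 0.62 in each, from medians of 0.777 and 1.09 FPKM in GV oocytes of May and July to 0.280 and 0.281 in MII oocytes. In July COPE, COPG1 and COPZ2 fell as well, so that 1 of the 8 subunits matched by the rule rose and 4 fell. The COPI subunit ARCN1, outside the rule, rose by 0.70 in May and was at 0.34 in July, where it did not pass. COPE, the epsilon subunit and the most abundant of the coat, had 4.88 to 15.4 FPKM (median 9.21) in GV oocytes of July and 0.706 to 9.41 (median 1.46) in MII oocytes of July. A single MII library overlapped the GV group widely, and the fall was 1.65 ± 0.44 on the log2 scale (adjusted p = 0.0138). In May COPE was at -1.05 with an adjusted p of 0.183, its GV libraries lying between 1.14 and 19.9 FPKM. COPA, the alpha subunit, was at 0.65 and 0.56 and did not pass (adjusted p = 0.0953 and 0.0840), but passed without the 3 shallow libraries in both months.

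The ARF GTPases recruit COPI and the adaptors to membranes. ARF4 was the only one of the 5 listed that rose, and only the May test passed. It had 1.04 to 5.98 FPKM (median 3.33) in GV and 2.15 to 26.6 (median 17.4) in MII oocytes of May, where the lowest MII library was the shallow MII May 6. Its values in July were 1.19 to 7.07 (median 5.0) in GV and 3.78 to 46.2 (median 15.9) in MII oocytes. The difference was 1.77 ± 0.49 (adjusted p = 0.0195) in May and 1.5 (adjusted p = 0.0564) in July, and the groups overlapped in both months. ARF5, the most abundant ARF with a mean of 49.1 FPKM, was at 0.75 and 0.10 and did not pass. ARF3 fell by 0.32 in July (adjusted p = 0.0455) from a median of 0.371 FPKM to 0.0721. ARF1, ARF2 and ARF3 are similar in sequence, and the sources used here do not state how reads shared between such genes were counted.

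**Figure D2:**
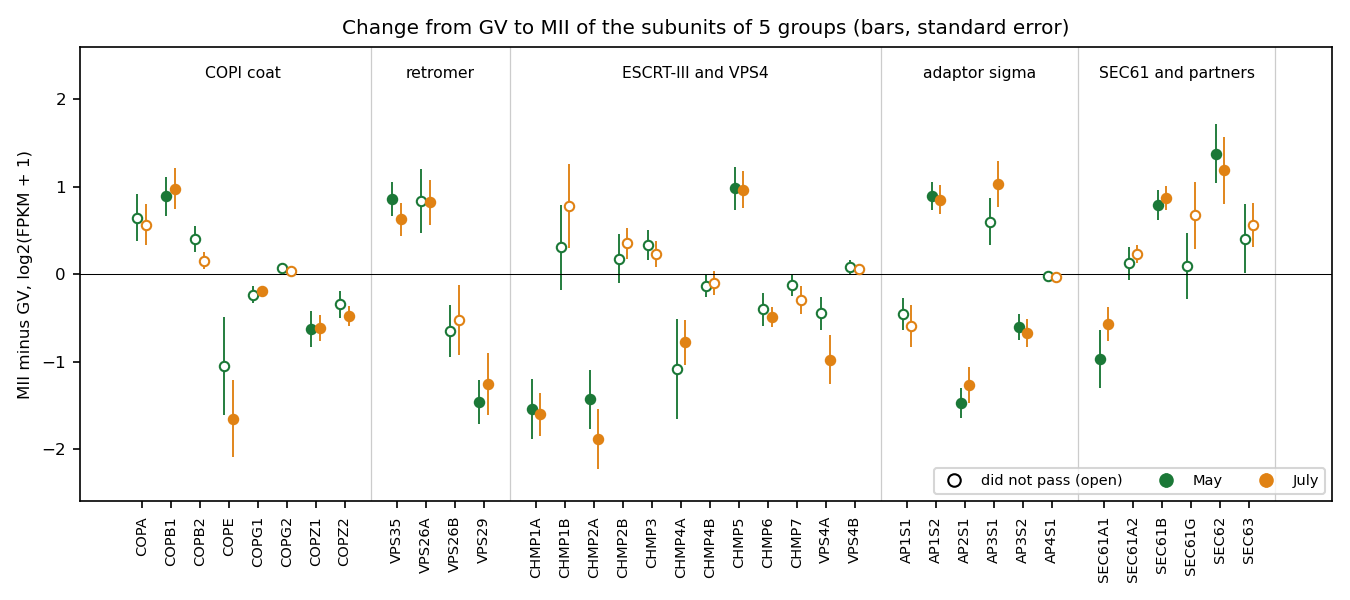
Difference between MII and GV oocytes on the log2(FPKM + 1) scale for the subunits of the COPI coat, retromer, ESCRT-III with VPS4, the small (sigma) subunits of the adaptor complexes, and SEC61 with its partners; green is May, orange is July, bars are standard errors and filled points passed an adjusted p under 0.05. Each of the 5 panels holds filled points above and below 0, such as VPS35 at 0.86 and VPS29 at -1.46 in May.

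TRAPP held the member with the largest difference. TRAPPC5, a subunit of the TRAPP core (chr7:17750387-17752623), had 45.98 to 109 FPKM in 5 GV libraries of May and 2.30 in the shallow library GV May 6, against 6.00 to 13.1 (median 8.67) in MII oocytes of May. In July TRAPPC5 had 16.6 to 97.1 FPKM (median 72.1) in GV and 2.73 to 14 (median 6.69) in MII oocytes, with no overlap and the lowest GV value again in a shallow library, GV July 2. The fall was 2.14 ± 0.69 (adjusted p = 0.0379) in May and 3.14 ± 0.47 (adjusted p = 0.000344) in July on the log2 scale. Without the 3 shallow libraries the May difference was -2.81 with an adjusted p of 7.0e-05. Quantile normalization gave -1.95 with an adjusted p of 0.0573, and 10 of the 12 fits that left out a single library gave adjusted p between 0.0584 and 0.0878.

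TRAPPC4, another core subunit, fell by 0.97 ± 0.13 (adjusted p = 0.000174) in July, from 5.21 to 6.49 FPKM (median 6.09) to 1.85 to 2.95 (median 2.59), and the groups did not overlap. In May its medians were 5.01 and 3.15 FPKM, and the difference of -0.57 did not pass (adjusted p = 0.168). TRAPPC1, the most abundant TRAPP gene, had medians of 69.1 FPKM in GV and 50.9 in MII oocytes of May, and of 89.4 and 45.6 in those of July, with adjusted p of 0.473 and 0.0738. Of the 10 TRAPP members tested, 8 were lower in MII oocytes in each month, with medians of -0.21 and -0.28. Of all 9526 genes, 5312 were lower in May and 5519 in July. TRAPPC6B, at 0.84 and 0.66, was higher but did not pass.

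Of the 6 members with GOLG symbols, grouped here as golgins, 3 rose and 1 fell in May, and 1 fell in July. Golgins are long tethers of the Golgi, but GOLGA7 and its relative GOLGA7B, which are among the 6, are not. GOLGA7, which works with a palmitoyltransferase rather than as a long tether, rose by 1.16 ± 0.34 (adjusted p = 0.0253) in May, from 3.40 to 9.63 FPKM (median 5.78) to 8.33 to 35.8 (median 13.1), with the highest value in the shallow MII May 6. Its relative GOLGA7B fell in both months, by 1.27 ± 0.38 in May and 1.36 ± 0.46 in July. GOLGA7B had medians of 6.01 and 1.91 FPKM in May and of 4.64 and 1.65 in July, and a single GV library of July, the shallow GV July 2, reached 24.8. GOLGA4 and GOLGA1, both tethers of the trans-Golgi, rose in May by 0.45 and 0.11 from medians of 0.158 and 0.0864 FPKM, and did not pass in July.

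The exocyst, which tethers carriers at the plasma membrane, had EXOC5 rising and EXOC3L1 falling in both months. EXOC3L1, a relative of the exocyst subunit EXOC3 (chr18:34940462-34946014), had 0.932 to 13.5 FPKM (median 10.1) in GV and 0.824 to 3.17 (median 1.87) in MII oocytes of May, where the lowest GV value was that of the shallow GV May 6. In July EXOC3L1 had 8.54 to 14.3 (median 12.6) in GV and 1.67 to 2.31 (median 2.21) in MII oocytes. The July groups were far apart, and the fall of 2.07 ± 0.15 had the smallest adjusted p of all members, 3.15e-06. In May the fall was 1.54 ± 0.43 (adjusted p = 0.0216), and -1.37 with an adjusted p of 0.0531 without GV May 5.

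EXOC5, a core subunit, rose by 1.01 ± 0.24 (adjusted p = 0.01) in May and by 0.92 ± 0.23 (adjusted p = 0.0097) in July, from medians of 1.01 and 1.03 FPKM in GV to 2.85 and 3.14 in MII oocytes. EXOC2 and EXOC7 fell in July by 0.06 and 0.10, at medians under 0.1 FPKM in both groups. EXOC2 had a median of 75 read steps in GV and 15.5 in MII oocytes of July, and EXOC7 of 16 and 3.5.

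HOPS and CORVET tether endosomes and lysosomes and share a core made of VPS11, VPS16, VPS18 and VPS33A. None of the 7 members passed in May, and 3 fell in July, where 23.1% of all genes fell. In MII oocytes 6 of 7 were lower in May and all 7 in July. Of all 9526 genes, 5312 were lower in May and 5519 in July. The 7 include VPS33B, a paralogue of VPS33A outside that core, at 0.04 in May and -0.07 in July. VPS18 had 0.751 to 4.29 FPKM (median 1.29) in GV and 0.0674 to 1.26 (median 0.128) in MII oocytes of July, and fell by 0.99 ± 0.28 (adjusted p = 0.0166). VPS33A fell by 0.35 ± 0.08 (adjusted p = 0.00799), from a median of 0.357 FPKM to 0.129, and VPS11 by 0.30 ± 0.05 (adjusted p = 0.000384), from 0.336 to 0.0570. The groups did not overlap for VPS33A and VPS11. In July VPS18 had a median of 134 read steps in GV and 8.5 in MII oocytes, VPS33A of 105.5 and 26.5, and VPS11 of 35 and 4. In May the same genes were at -0.59, -0.36 and -0.15, with adjusted p of 0.0709, 0.0506 and 0.0572. Outside the core, VPS39 and VPS41 were at -0.07 and -0.06 in July.

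GARP and EARP, tethers for carriers that return from endosomes, held VPS51, which fell in both months by 0.55 and 0.39. Its medians were 0.756 FPKM in GV and 0.0863 in MII oocytes of May, and 0.453 and 0.0815 in those of July. VPS54, present in GARP, rose by 0.08 in May, and VPS53 fell by 0.07 in July, both at medians under 0.1 FPKM in all groups.

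**Figure D3:**
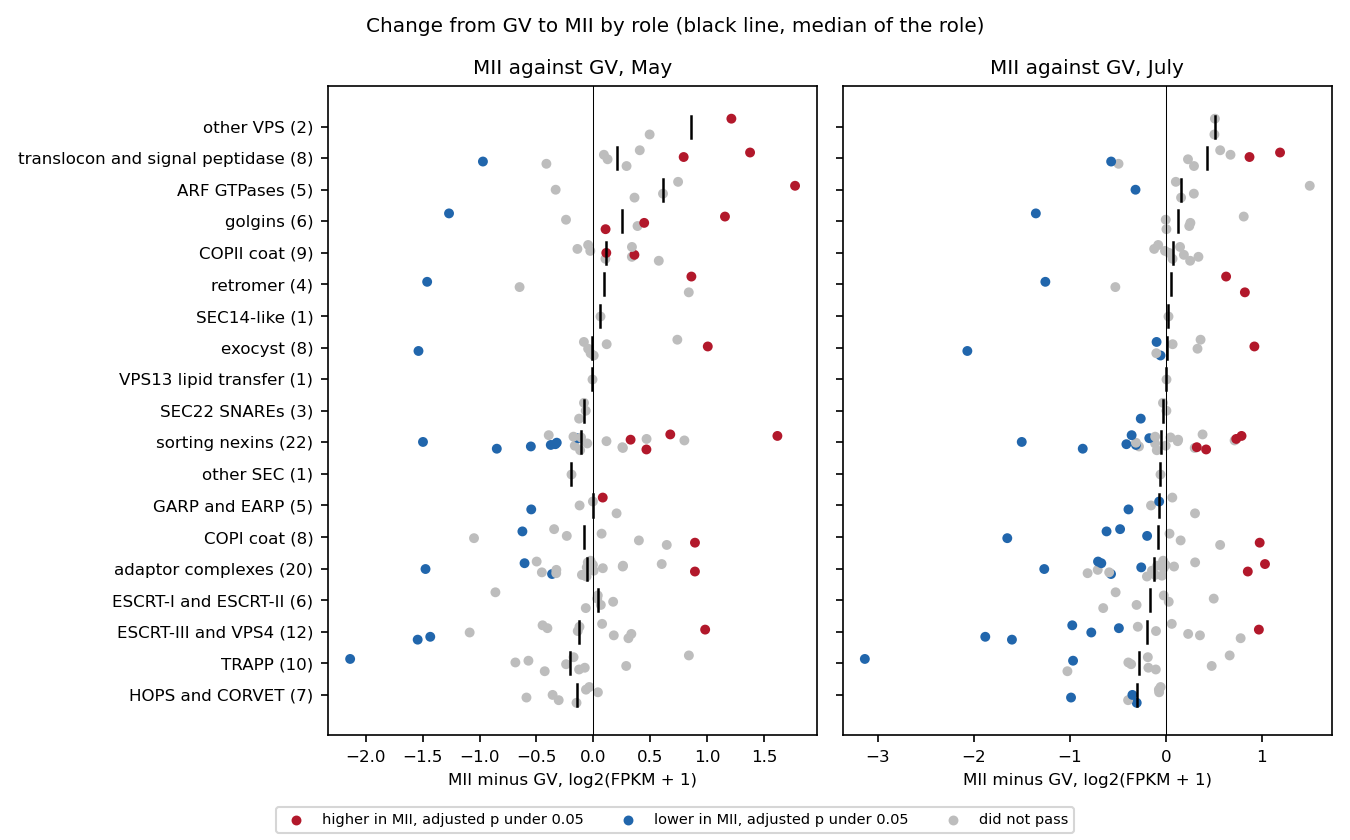
Difference between MII and GV oocytes on the log2(FPKM + 1) scale for every tested member, grouped by role, with May on the left and July on the right; each point is a gene, red and blue points passed an adjusted p under 0.05 and the black line is the median of the role. The 7 members grouped under HOPS and CORVET, VPS33B among them, all lie below 0 in July, and most other roles hold points on both sides of 0. Of all 9526 genes tested, 5519 were lower in MII oocytes in July.

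The adaptor complexes choose cargo, and each holds a small sigma subunit, a medium mu subunit and large subunits. In May 1 of their 20 tested members rose and 3 fell, and in July 2 rose and 5 fell. Of the alpha subunits of AP-2, outside the rule, AP2A2 fell by 0.16 in May and 0.28 in July, and AP2A1 did not pass. AP2S1, the sigma subunit of the AP-2 adaptor of endocytosis (chr18:54363679-54373315), had 2.85 to 5.32 FPKM (median 3.72) in GV and 0.508 to 1.29 (median 0.715) in MII oocytes of May. Its values in July were 1.98 to 5.66 (median 2.71) in GV and 0.272 to 1.13 (median 0.733) in MII oocytes. No value of an MII library reached a GV value in either month, and the fall was 1.48 ± 0.17 (adjusted p = 0.000137) in May and 1.27 ± 0.20 (adjusted p = 0.000592) in July. AP2M1, the mu subunit of the same adaptor, had medians of 4.65 and 4.10 FPKM in May and 5.54 and 2.68 in July and did not pass.

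AP1S2, a sigma subunit of the AP-1 adaptor of the trans-Golgi, moved the other way. It had 1.07 to 2.08 FPKM (median 1.81) in GV and 3.30 to 4.25 (median 4.17) in MII oocytes of May, and 1.30 to 2.99 (median 1.59) and 3.16 to 5.19 (median 4.05) in those of July. The groups were separate in both months, and the rise was 0.89 ± 0.16 (adjusted p = 0.00185) and 0.85 ± 0.16 (adjusted p = 0.00197). AP1S1, the paralogous sigma subunit, was at -0.45 and -0.59 and did not pass (adjusted p = 0.0895 and 0.0821). AP1M1, the mu subunit of AP-1, fell in both months, by 0.36 and 0.57, from medians of 0.375 and 0.652 FPKM to 0.0891 and 0.0677.

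In July the sigma subunits of the AP-3 adaptor, which serves lysosomes and related organelles, passed in opposite directions. AP3S2 fell by 0.67 ± 0.16 (adjusted p = 0.00601), from 0.396 to 1.90 FPKM (median 0.724) to 0.0361 to 0.236 (median 0.118). AP3S1 rose by 1.03 ± 0.26 (adjusted p = 0.00974), from 39.1 to 70.0 FPKM (median 61.6) to 74.8 to 193 (median 115), with the caution on its locus given above. In May AP3S2 fell by 0.60 ± 0.15 (adjusted p = 0.0104), and AP3S1 was at 0.60 with an adjusted p of 0.116. AP3B2, of AP-3, and AP4M1, of AP-4, fell by 0.26 and 0.71 in July and did not pass in May.

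Of 31 written sets of paralogues, which leave out GOLGA7 with GOLGA7B, AP3S1 with AP3S2 was the sole set that passed in opposite directions in July. In May the sole such set was SNX9 with SNX18, a pair of sorting nexins of endocytosis. SNX9 rose by 0.68 ± 0.21 (adjusted p = 0.0311), from medians of 0.532 to 1.54 FPKM, and SNX18 fell by 0.37 ± 0.09 (adjusted p = 0.0126), from 0.423 to 0.118. In July SNX18 fell by 0.31 ± 0.05 and SNX9 was at 0.38 with an adjusted p of 0.339.

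Retromer is built from VPS35, VPS26 and VPS29. VPS29 (chr17:56617707-56624900) had 19.4 to 45.3 FPKM (median 22.9) in GV and 6.73 to 11 (median 9.51) in MII oocytes of May, with no overlap. In July VPS29 had 7.48 to 40.8 (median 29.6) in GV and 6.83 to 12.6 (median 10.3) in MII oocytes, and the value of 7.48 was that of the shallow library GV July 2. It fell by 1.46 ± 0.25 (adjusted p = 0.00147) in May and 1.26 ± 0.35 (adjusted p = 0.0165) in July. The July call was lost after quantile normalization, at -0.88 with an adjusted p of 0.124, and after median-of-ratios scaling, at -1.25 with an adjusted p of 0.0551. Without the shallow library the July difference was -1.57 with an adjusted p of 0.000203.

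VPS35, the scaffold that binds both other subunits, rose from 0.514 to 1.23 FPKM (median 1.04) in GV to 1.47 to 4.4 (median 2.5) in MII oocytes of May, again with no overlap, and from medians of 1.29 to 2.41 in July. The rise was 0.86 ± 0.20 (adjusted p = 0.00804) in May and 0.63 ± 0.18 (adjusted p = 0.0212) in July. VPS26A rose by 0.82 ± 0.26 in July (adjusted p = 0.0286), with medians of 1.02 and 3.27 FPKM, and was at 0.84 in May with an adjusted p of 0.112. VPS26B, its paralogue, was lower, at -0.65 and -0.53, and did not pass. The FPKM of VPS29 was higher than that of VPS35 in both stages. Medians in May were 22.9 against 1.04 in GV and 9.51 against 2.5 in MII oocytes. VPS29 spans 7194 bases on the genome and VPS35 spans 27649, so these FPKM do not compare the amounts of their RNA.

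Sorting nexins bind phosphoinositides on endosomes, and 22 of 24 were tested. In May 4 rose and 7 fell, and in July 4 rose and 6 fell. SNX6, listed at the short locus described above, had 11.5 to 57.5 FPKM (median 40.9) in GV and 85.9 to 122 (median 118) in MII oocytes of May, and 29.4 to 61.2 (median 48.3) and 56.8 to 118 (median 79.1) in those of July. The rise was 1.62 ± 0.34 (adjusted p = 0.00494) in May and 0.79 ± 0.23 (adjusted p = 0.0214) in July, and the groups overlapped in July only. Without the 3 shallow libraries the May rise was 1.38. SNX5, its paralogue, had medians of 0.343 and 0.317 FPKM in May and 0.364 and 0.228 in July and did not pass.

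SNX22, a little studied sorting nexin, fell by 1.5 ± 0.40 (adjusted p = 0.0164) in May and by 1.5 ± 0.28 (adjusted p = 0.00176) in July. It had 1.27 to 6.46 FPKM (median 3.90) in GV and 0.138 to 1.26 (median 0.617) in MII oocytes of July. SNX11 fell by 0.85 and 0.87, from medians of 1.99 and 1.58 FPKM to 0.532 and 0.521. SNX10, known for its part in endosome and lysosome organization, rose by 0.47 ± 0.11 (adjusted p = 0.0103) and 0.42 ± 0.09 (adjusted p = 0.0054) from medians of 0.231 and 0.210 FPKM, with no overlap in either month. SNX3, which guides retromer to its cargo, rose by 0.73 ± 0.20 in July (adjusted p = 0.0139), from a median of 2.23 FPKM to 4.02, and SNX27, which links cargo to retromer, rose by 0.33 in May (adjusted p = 0.0228), from 0.105 to 0.343.

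**Figure D4:**
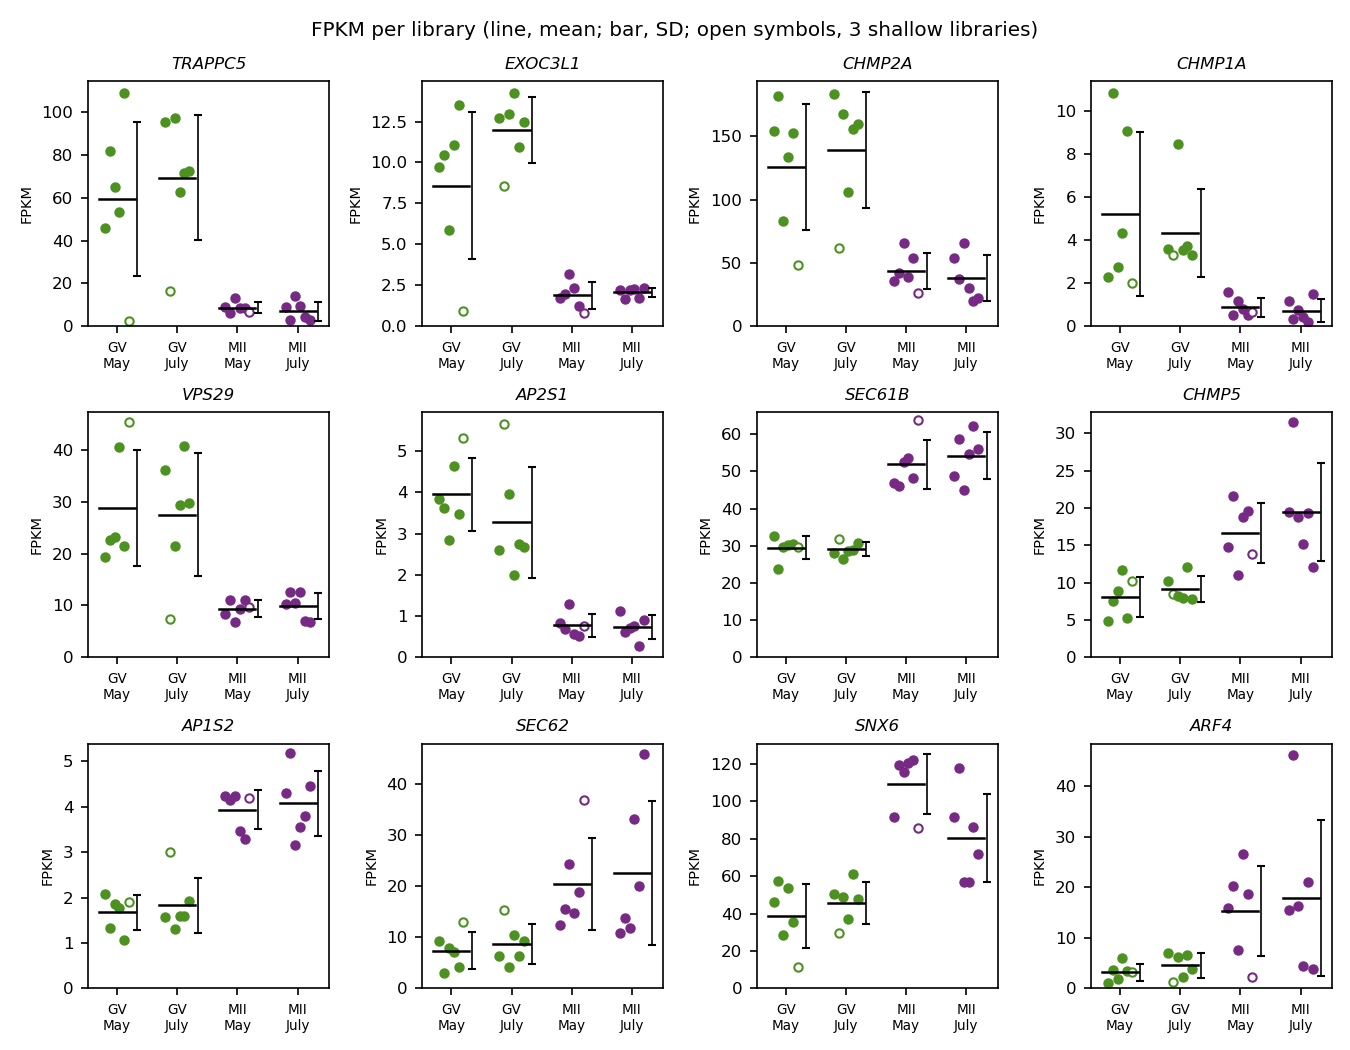
FPKM of 12 members in each of the 24 libraries, with GV oocytes in green and MII oocytes in purple; the horizontal line is the mean of the 6 libraries, the bar at its right 1 SD (cut at 0), and open symbols mark the 3 shallow libraries. For TRAPPC5 in GV oocytes of May the open symbol lies at 2.30 while the other 5 libraries lie between 45.98 and 109, and for SEC61B the MII libraries all lie above 45.0 and the GV libraries at or below 32.8.

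ESCRT-I and ESCRT-II act before ESCRT-III in sorting receptors into endosomes, and none of their 6 tested members passed in either month. VPS25, the most abundant of them, had medians of 7.26 and 9.64 FPKM in May and of 9.96 and 6.09 in July. Outside the rule, SNF8 of ESCRT-II fell by 1.23 in May and 1.60 in July, and MVB12A of ESCRT-I by 1.32 and 1.25. TSG101 and UBAP1, also of ESCRT-I and outside the rule, did not pass in either month. In ESCRT-III with the VPS4 ATPases, 1 of 12 rose and 2 fell in May, and 1 rose and 5 fell in July.

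CHMP2A, a subunit of the ESCRT-III filament (chr18:65960799-65963497), had 48.7 to 182 FPKM (median 143) in GV and 26.1 to 65.8 (median 40.7) in MII oocytes of May. In July CHMP2A had 62.1 to 183 (median 158) in GV and 19.6 to 65.5 (median 33.8) in MII oocytes. In each month the single GV value inside the range of the MII libraries was that of a shallow library, and the fall was 1.43 ± 0.33 (adjusted p = 0.00848) in May and 1.88 ± 0.34 (adjusted p = 0.00143) in July. CHMP1A, another subunit, fell by 1.54 ± 0.35 (adjusted p = 0.00692) and 1.60 ± 0.24 (adjusted p = 0.00041), from medians of 3.54 and 3.56 FPKM to 0.736 and 0.592, and its groups did not overlap in either month.

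CHMP5, which helps to regulate VPS4, rose by 0.98 ± 0.25 (adjusted p = 0.0131) in May and by 0.97 ± 0.21 (adjusted p = 0.0045) in July. It had 4.85 to 11.6 FPKM (median 8.17) in GV and 11 to 21.6 (median 16.8) in MII oocytes of May, and 7.81 to 12.1 (median 8.35) and 12.1 to 31.4 (median 19.0) in those of July. In July CHMP4A, CHMP6 and VPS4A fell as well, by 0.78, 0.49 and 0.98. VPS4A, the ATPase that takes the filament apart, had medians of 1.49 FPKM in GV and 0.369 in MII oocytes of July with no overlap, and its paralogue VPS4B was at 0.06. CHMP2B and CHMP1B, paralogues of CHMP2A and CHMP1A, were higher in MII oocytes, at 0.18 and 0.31 in May and 0.35 and 0.78 in July, and did not pass.

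The 2 members outside these roles were VPS45, a regulator of SNARE proteins, which did not pass, and the chromatin gene VPS72. VPS72 rose by 1.21 ± 0.35 (adjusted p = 0.023) in May, from 2.45 to 12.3 FPKM (median 7.63) to 10.7 to 20.5 (median 15.8), and was at 0.51 in July. SEC1, SEC14L1 and VPS13D did not pass in either month, at mean levels under 1 FPKM.

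No member passed the adjusted threshold between July and May, in GV or in MII oocytes, nor for the season difference in the change from GV to MII (limma, 0 of 138 in each, and 0 of all 9526 genes). At an unadjusted p under 0.05, 2 members differed between months in GV oocytes, 3 in MII oocytes and 2 in the change, which are 1.45%, 2.17% and 1.45% of the members against 1.55%, 2.11% and 1.80% of all genes. The standard errors of the members' season differences had a median of 0.18 in GV and 0.13 in MII oocytes and reached 0.75 and 0.65, so that a p that misses the threshold does not show equal levels. In GV oocytes SNX27 had 0.0591 to 0.167 FPKM (median 0.105) in May and 0.129 to 0.596 (median 0.217) in July, a difference of 0.19 ± 0.08 with an exact permutation p of 0.0108. AP3S1 had 63.7 to 120 FPKM (median 77.4) in GV oocytes of May and 39.1 to 70.0 (median 61.6) in those of July, a difference of -0.51 ± 0.23 with an exact permutation p of 0.0216. Both pairs of groups overlapped. SNX27 and AP3S1 were named for having the smallest limma p in this comparison. Their permutation p comes from the same libraries and is not corrected for that choice.

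COPG2, a gamma subunit of COPI, had medians of 0.0553 and 0.0894 FPKM in GV oocytes of May and July. VPS41, of HOPS, was the sole member whose GV groups did not overlap, from 0.132 to 0.181 FPKM in May and from 0.196 to 0.277 in July, as 0.136% of all genes did in this direction. Its difference was 0.07 ± 0.04 on the log2 scale, with an exact permutation p of 0.00216, the smallest that 924 assignments of 6 and 6 libraries can give, and a limma adjusted p of 1. VPS41 was named after its values had been seen.

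In MII oocytes the members with the smallest p were VPS53, EXOC3 and SNX6, all lower in July. VPS53 had medians of 0.0655 and 0.0414 FPKM and EXOC3 of 0.109 and 0.0606. SNX6 had medians of 118 FPKM in May and 79.1 in July, a difference of -0.47 ± 0.20 (exact permutation p = 0.0390, not corrected for its choice by smallest p). For the change from GV to MII, VPS11, VPS53 and SNX6 had the smallest p, with a difference between months of -0.16 ± 0.07, -0.07 ± 0.03 and -0.83 ± 0.42 (unadjusted p = 0.0407, 0.0449 and 0.0579 in limma, each with an adjusted p of 0.999782).

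**Figure D5:**
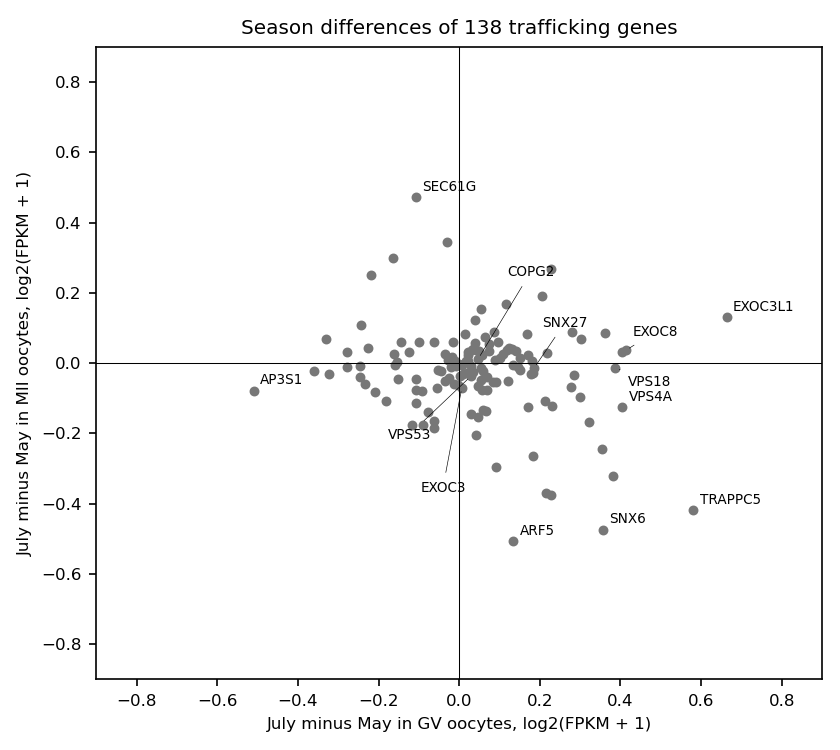
Difference between July and May on the log2(FPKM + 1) scale for the 138 tested members, GV oocytes on the horizontal and MII oocytes on the vertical axis, 1 point per gene. Most points lie near 0, EXOC3L1 lies farthest to the right at 0.66, and no point passed an adjusted p under 0.05 in either stage.

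The same pathways hold genes that the symbol rule does not match, and 83 of 92 such genes on a written list were tested. Of these, 7 rose and 18 fell in May, and 8 rose and 27 fell in July. The shares were 8.43% and 21.7% in May and 9.64% and 32.5% in July, against 9.45%, 14.7%, 7.67% and 23.1% of all genes, with medians of 0.01 and -0.02, and none passed between months. SAR1A, the GTPase that starts COPII assembly, fell by 2.54 ± 0.21 in May and 2.72 ± 0.18 in July (limma adjusted p = 1.57e-05 and 1.89e-06). VTI1B, an endosomal SNARE, fell by 1.78 in May and 1.69 in July, and SNF8, a subunit of ESCRT-II, by 1.23 and 1.60. TMED7, a cargo receptor of the early secretory pathway, rose by 1.36 and 0.95, and COG8, a subunit of another Golgi tether, fell by 1.84 and 2.11.

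The difference between stages went with the length of the gene on the genome, as a description across genes that share libraries. Over the 138 members, Spearman's correlation between the difference and the genomic span was 0.37 in May and 0.35 in July, so that members with short genes were more often lower in MII oocytes. Over all 9526 genes it was 0.34 and 0.31. The correlation of the difference with the mean level was 0.13 and 0.09 over members. What part gene length had in the differences was not tested.

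The 14 members that did not pass the filter on low values were TRAPPC3L, TRAPPC9, TRAPPC10 and TRAPPC12 of TRAPP, EXOC1, EXOC4 and EXOC6B of the exocyst, VPS37C, CHMP4C, AP1S3, SNX7, SNX29, SEC14L2 and SEC14L5. Their highest value in any library was 0.0865 FPKM, in AP1S3. EXOC1 and EXOC4, core subunits of the exocyst, were at or under 0.0290 and 0.0560 FPKM in all 24 libraries. In these libraries EXOC5, of the same complex, reached 6.33. EXOC1 and EXOC4 span 476891 and 804620 bases on the genome, against 52271 for EXOC5. As FPKM depend on span, these values do not show that EXOC1 and EXOC4 had fewer reads.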

How the data were processed

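The authors trimmed low-quality reads and adaptors, mapped with STAR (version 2.5.3a in the submitters' processing notes) against the cattle genome UMD3.1.1, and deposited FPKM per gene and library; Partek served for their own tests. Every library sums to between 86768.1 and 86768.2 and no value is under 0.01, so a scaling to a common total and an added 0.01 are taken from the values. The libraries were amplified with a Smart-seq2 kit, and the handling of strand and of shared reads is not given in the sources used here.

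Genes over 0.1 FPKM in at least 1 of 24 libraries, 9526 of 11306, were tested on log2(FPKM + 1) with limma 3.58.1 in R 4.3.3 (trended moderation, only the groups compared). Fold changes on this scale understate those of low genes. A gene passed at a Benjamini-Hochberg adjusted p under 0.05 over all genes tested. An unadjusted p under 0.05 with a change over 1 on this log2 scale was an alternative. It differs from the rule of the study's methods, a fold change over 2 in their own values. Single named genes also had a two-sided exact permutation test over 924 assignments. The season difference was fitted over all 4 groups. The p-values measure the spread between these pools, which the labels do not tie to animals. The methods give fewer cows than any 2 groups have pools, so animals recur between groups.

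The genes named are the 8 rising and 8 falling members of smallest p per month, up to 3 passing members and the most abundant per role, the 3 of smallest p per season test, the 5 highest in level, those under the filter, paralogues passing in opposite directions, and 3 further trafficking genes per month. A few subunits were named beside these to complete a complex, after their values had been seen. The members and lists were chosen with earlier results of these data known.

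Relative depth was estimated in Python 3.11.15 (numpy 2.4.6, pandas 2.3.3) from the spacing of low FPKM values: 99.1% of 74704 values lay within 0.1 of a whole step. Which exons were counted is not given in the table, and overlapping or antisense genes cannot be told apart. The table gives no read totals, so counting errors are not given. The planned comparison with protein length was replaced by genomic span, and no sequences were used here. The limma fit was tested on simulated data for 9526 genes. Other settings tried were no filter, a pseudocount of 0.1, a mean of at least 1 FPKM, median-of-ratios scaling, quantile normalization, all 4 groups in a fit, the unadjusted p with a change over 1, the replicate number as a block, and leaving out single or shallow libraries. The set without GV May 3 was added after seeing the data.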

Additional observations from a re-analysis of the deposited data

Results flagged for a closer look

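In 244 groups of 6 libraries, 1 for each group and each tested gene chosen by the naming rule, 32 held a highest or lowest library whose gap to the nearest of the others was, as a share of the whole range, over Dixon's critical value for 6. Members named beside that rule were not screened. Chance flags about 1 in 20 such groups. The 3 shallow libraries held 22 of the 32, and every value is given here with the median of its group in parentheses. The shallow library GV May 6 was highest of its group for COPG1 at 0.785 FPKM (0.183), GOLGA4 at 0.801 FPKM (0.158), SNX9 at 1.63 FPKM (0.532), VPS13D at 0.111 FPKM (0.0183), VPS33A at 1.22 FPKM (0.339) and VPS50 at 0.604 FPKM (0.190), and lowest for EXOC3L1 at 0.932 FPKM (10.1) and TRAPPC5 at 2.30 FPKM (59.1). The shallow library GV July 2 was highest of its group for GOLGA4 at 0.597 FPKM (0.233), GOLGA7B at 24.8 FPKM (4.64), SNX21 at 1.29 FPKM (0.230), VPS13D at 0.0527 FPKM (0.0206), VPS18 at 4.29 FPKM (1.29) and VPS33A at 0.856 FPKM (0.357), and lowest for TRAPPC1 at 30.9 FPKM (89.4) and TRAPPC5 at 16.6 FPKM (72.1). The shallow library MII May 6 was highest of its group for ARF3 at 0.505 FPKM (0.0913), GOLGA7 at 35.8 FPKM (13.1), VPS11 at 0.136 FPKM (0.0599), VPS13D at 0.0722 FPKM (0.0190) and VPS26A at 8.44 FPKM (2.54), and lowest for TRAPPC4 at 0.888 FPKM (3.15).

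Of the other libraries, GV July 3 stood apart for CHMP1A at 8.47 FPKM (3.56) and SEC14L1 at 0.394 FPKM (0.108). GV July 6 stood apart for SNX18 at 0.543 FPKM (0.423). GV May 2 stood apart for SEC61B at 23.7 FPKM (30.1) as its lowest value and VPS53 at 0.120 FPKM (0.0674). MII July 1 stood apart for ARF3 at 0.205 FPKM (0.0721). MII July 2 stood apart for COPG2 at 0.266 FPKM (0.0901). MII July 6 stood apart for VPS18 at 1.26 FPKM (0.128) and VPS51 at 0.383 FPKM (0.0815). MII May 3 stood apart for SNX21 at 0.219 FPKM (0.0459).

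VPS13D, a lipid transfer protein, was highest in each of the 3 shallow libraries. No member differed between months by the test of the difference itself.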

How the results depend on the processing

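No member that passed from GV to MII changed sign under any setting, and 0 members passed in the season comparisons under every setting run. The counts moved more. In May, 39 rose after quantile normalization, 37 without the 3 shallow libraries, 39 when GV May 3 was also left out and 6 by an unadjusted p with a change over 1 on log2(FPKM + 1), called the size rule here, against 19. For falls in May, also 19, the counts were 9 with a mean of at least 1 FPKM required, 29 after median-of-ratios scaling, 29 without the shallow libraries, 39 without these and GV May 3, and 8 by the size rule. In July, against 13 that rose, the counts were 20 after median-of-ratios scaling, 42 after quantile normalization, 24 without the shallow libraries, 24 without these and GV May 3, and 3 by the size rule. Against 35 falls in July, the counts were 14 with a mean of at least 1 FPKM required and 10 by the size rule. Fewer members are tested with that filter, and the cause of the other shifts was not tested. A pseudocount of 0.1 moved the median of all genes to -0.12 in May and -0.13 in July.

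Leaving out a single library gave 11 to 29 rises and 10 to 34 falls in May, and 11 to 24 rises and 29 to 37 falls in July. In May the rises and falls were 29 and 34 without GV May 6, 12 and 18 without GV May 1, 12 and 10 without GV May 2, and 11 and 11 without GV May 5. The falls in May were 10 without MII May 2, 12 without MII May 4 and 10 without MII May 5. In July there were 24 rises without GV July 2. No source says that a replicate number marks a shared animal, and not every pair correlated over 0.1, so the numbers were not taken as pairs. Same-numbered libraries of May had correlations of their deviations from -0.17 to 0.54, and those of July from -0.28 to 0.65, with 2 and 3 of 6 correlating best with their own number. Between the months the correlations ran from -0.32 to 0.44 in GV oocytes, with 0 of 6 best with their own number, and from -0.44 to 0.76 in MII oocytes, with a median of 0.55 and 4 of 6 best with their own number, a hint of pairing from the data. With the replicate number as a block, 25 rose and 19 fell in May (13.9% and 16.1% of all genes) and 16 rose and 31 fell in July (8.82% and 22.7%), and 30 of 38 and 44 of 48 calls were kept. Depth limits the lowest members most. A read step was solved for 93 of the 138 tested members, and 7 of these had a median under 10 steps over all 24 libraries. Medians of single groups could be lower. Of the members that fell in July, VPS11 had a median of 4 steps in MII oocytes of July and EXOC7 of 3.5. ARF3 and VPS51 had 7 there, VPS18 had 8.5, and COPG1 and CHMP6 had 9.5.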
